A study of Mus musculus with 6 samples.

Results

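Type 2 innate lymphoid cells were picked out of the synovial leukocytes of arthritic mice by counts of UMIs (unique molecular identifiers, each standing for 1 captured transcript), taken as deposited after the authors' correction for ambient RNA. A cell was taken when it held at least 1 UMI of Gata3, at least 1 UMI of Il1rl1, fewer than 2 UMIs of Cd3d, Cd3e and Cd3g together, and 0 UMIs of Cpa3, Mcpt4, Tpsb2 and Mcpt8 together. Of 32953 cells, 117 met this rule, which is 0.355% (Wilson 95% interval 0.296% to 0.425%). The levels of these 9 genes in the 117 cells follow from the rule and are given below as a description only.

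Type 2 innate lymphoid cells are lymphocytes without a rearranged antigen receptor that reside in tissues. They respond to alarmins released by stressed cells, chiefly interleukin-33 through its receptor ST2 (encoded by Il1rl1), and to interleukin-25 and thymic stromal lymphopoietin, and their identity depends on the transcription factors GATA3 and ROR alpha. They are known for secreting interleukin-5, the growth factor of eosinophils, interleukin-13, which drives mucus and tissue repair programs, and amphiregulin, an epidermal growth factor receptor ligand. In arthritis, cells of this type have been described as a brake on joint inflammation.

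The cells came from C57BL/6 mice, male and 8 weeks old at purchase, that were immunized with methylated bovine serum albumin and then challenged with the same antigen in the knee on day 21 (antigen-induced arthritis, AIA). From day 21 the mice were given intraperitoneal PBS (2 samples) or 300 μg of the pegylated immunopeptide PEPITEM (4 samples), and joints were digested 3 days after the challenge. Cells with the leukocyte protein CD45 were sorted from the digest and sequenced singly from the 3′ ends of their RNA. All samples were deposited as a single count table whose barcodes carry a library number from 1 to 6, and no source used here says which sample a number stands for. Vehicle and PEPITEM were therefore not compared, the table counts as 1 sample, and no test was run. The numbers serve below as libraries of unknown treatment, and intervals cover counting error only.

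The depth of the libraries was 47273569 to 123367661 UMIs. The 117 cells held 1113621 UMIs in all, between 1597 and 40592 per cell with a median of 7211, and a median of 2228 genes. Levels are summed UMIs of a gene per 1000000 UMIs of the class (CPM), and a gene with no UMI in these cells can have a level of up to 2.69 CPM (3 counts of the total). Of the barcodes, 138 were shared by cells of different libraries, and none belonged to a type 2 innate lymphoid cell. Libraries 5 and 6 stood apart in neutrophil transcripts: S100a8, an alarmin of neutrophil granules, was at 13113 CPM in the selected cells of library 5 and 25253 in library 6, against 10.2 in library 3 and 0 in libraries 1, 2 and 4. These transcripts came from few cells, since 6 cells had any S100a8 and a single cell held 45.2% of the UMIs of 10 neutrophil genes. A set of 14 cells with at least 5 UMIs of S100a8, Lyz2 or Cd74 or any UMI of Foxp3 is called mixed cells below. They had a median of 17079 UMIs, against 7134 in the 103 others, and values without them are given for some results below. Such cells were left out of the 117 cells only, and the compared classes were kept whole. The genes used to pick them, and genes that go with these, fall in part by construction when they are left out.

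The 117 cells were compared with other cells of the same libraries that were gated on the same counts. Gata3 and Il1rl1 T cells (99 cells) met the same rule as the type 2 innate lymphoid cells except for 2 or more Cd3 UMIs, with or without Foxp3. Of the other cells with at least 2 Cd3 UMIs, conventional Cd4 T cells (198 cells) had Cd4 without Foxp3, and Foxp3 T cells (91 cells) had Foxp3. Natural killer cells (223 cells) had Ncr1 and Klrb1c, and mast cells (165 cells) had Kit, Cpa3 and Mcpt4 or Tpsb2. All levels are in CPM. Fold differences were taken after adding 5 CPM to both levels, and a gene counted as higher or lower when it differed at least 4-fold, among genes at 20 CPM or more in either class.

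The selected cells were not at the edge of the rule for most of its genes. Gata3 had a median of 7 UMIs per cell (range 1 to 63) and Il1rl1 a median of 8 (range 1 to 50), while 18 cells had only 1 UMI of either. Il5 was at 299 CPM in these 18 cells and at 725 in the 99 cells with at least 2 UMIs of both genes. Of the 18, only 4 had an Il5 UMI, and a single cell held 29 UMIs against 1 or 2 in the others. No Cd3 UMI was found in 104 cells, and 13 cells had a single one. Just outside the rule, 12 cells with 2 or 3 Cd3 UMIs had 129 CPM of Il5, all of it in 1 cell, and 459 of Trac, the constant chain of the alpha beta T cell receptor. A further 5 cells were outside the rule by 1 or 2 UMIs of the mast cell genes, and they had Il5 at 449 CPM, also from 1 cell, and no UMI of Fcer1a, a chain of the mast cell IgE receptor. In 221 cells with Gata3 but no Il1rl1 UMI, Il5 had 0 UMIs, Il13 a UMI in 2 cells and Calca, a neuropeptide gene, in 8. The 13 of them with at least 5 Gata3 UMIs had 0 UMIs of Il5 and Il13, Calca at 312 CPM in 4 cells and Rora at 1055 CPM.

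The shares of type 2 innate lymphoid cells overlapped between the libraries. They numbered 10, 18, 12, 21, 29 and 27 in libraries 1 to 6. The lowest share was 0.299% in library 1, the median was 0.334% and the highest was 0.526% in library 4. The interval of library 4 (0.344% to 0.802%) overlapped that of library 1 (0.162% to 0.549%) and those of the other libraries.

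**Figure D1:**
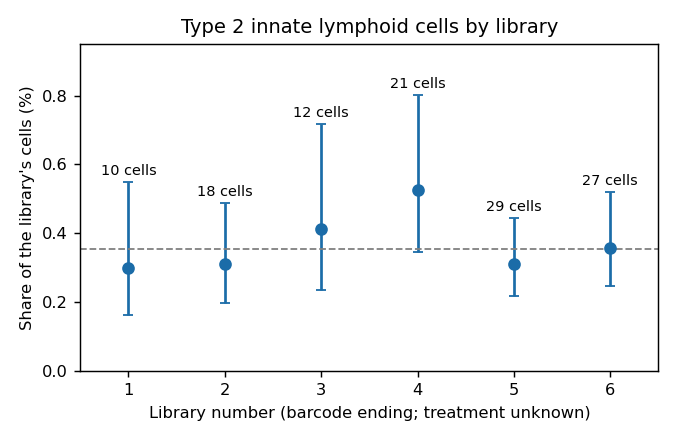
Share of type 2 innate lymphoid cells among the cells of each library (y axis, percent) by library number (x axis). Points are shares, bars are Wilson 95% intervals, the number of cells stands above each bar and the dashed line marks the pooled share of 0.355%; all bars overlap.

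Interleukin-5 and interleukin-13, the cytokines by which these cells are defined and which the rule did not use, were the check of the label. Il5 (chromosome 11, 53720794 to 53725106, GRCm38) was at 682 CPM (exact Poisson 95% interval 635 to 733) in the type 2 innate lymphoid cells. It was at 43.1 in Gata3 and Il1rl1 T cells, 1.63 in conventional Cd4 T cells, 0.377 in natural killer cells and 0 in Foxp3 T cells and mast cells. The level in the type 2 innate lymphoid cells was 14.3-fold higher than in the Gata3 and Il1rl1 T cells, the next highest class. By library, Il5 was at 303, 1224, 1554, 884, 105 and 87.9 CPM in libraries 1 to 6, so that libraries 2 to 4 were high and libraries 5 and 6 low, over a 17.7-fold range. The share of cells with an Il5 UMI followed the same order at its ends, with 9 of 12 cells (75.0%, interval 46.8% to 91.1%) in library 3 and 5 of 27 cells (18.5%, interval 8.18% to 36.7%) in library 6. The median depth of the cells was 10134, 8791, 12276, 8036, 4644 and 6280 UMIs in libraries 1 to 6. Libraries 5 and 6 were the shallowest, while library 1, the second deepest, had Il5 at 303 CPM, and the part of depth was not tested. In each library 2 cells held most of the UMIs of a cytokine, from 58.3% to 85.9% for Il5 and from 55.7% to 100% for Il13, so the levels by library rest on few cells. Type 2 innate lymphoid cells had more Il5 than the Gata3 and Il1rl1 T cells of their own library in 5 of 6 libraries. Over all libraries 42 of 117 cells (35.9%) had an Il5 UMI, and 1 cell held 18.0% of the Il5 UMIs; the mean of the levels of single cells was 423 CPM.

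Il13 (chromosome 11, 53631324 to 53634702), in the same type 2 cytokine locus as Il5, was at 542 CPM (500 to 587). Its level was 38.5 in Gata3 and Il1rl1 T cells, 23.3 in conventional Cd4 T cells and 526 in mast cells, and the 1.03-fold difference from mast cells was within counting error. Il13 ranged over the libraries from 347 to 803 CPM with a median of 495, a 2.31-fold range. Of the libraries low in Il5, library 6 also had the lowest Il13, while library 5 had Il13 at 654, with 85.2% of its UMIs in 2 cells. It was higher than in the conventional Cd4 T cells and in the Gata3 and Il1rl1 T cells of the same library in 6 of 6 libraries. Il4, the cytokine of B cell class switching to IgE, was at 156 CPM (134 to 181) against 426 in mast cells and 6.93 in Gata3 and Il1rl1 T cells. By library Il4 was lowest in library 3 (25.5) and highest in library 5 (303), with a median of 110, the reverse of Il5 in these 2 libraries. A single cell held 27.0% of the Il4 UMIs.

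The sequences upstream of the start of Il5 and Il13 are shown because these genes lie in 1 locus, are read on opposite strands and carry the label of the cells. They are the 250 bases before the start in RefSeq (GRCm38.p6), on the strand of the gene, with matches to GATAA, the core of a GATA factor motif, in capitals. Both strands were searched.
Il5, chr11:53720544-53720793, plus strand: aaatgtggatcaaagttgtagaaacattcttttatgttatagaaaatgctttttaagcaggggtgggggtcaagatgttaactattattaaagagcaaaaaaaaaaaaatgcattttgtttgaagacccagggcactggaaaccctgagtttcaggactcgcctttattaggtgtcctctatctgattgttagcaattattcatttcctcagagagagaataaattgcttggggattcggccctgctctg
Il13, chr11:53634703-53634952, minus strand: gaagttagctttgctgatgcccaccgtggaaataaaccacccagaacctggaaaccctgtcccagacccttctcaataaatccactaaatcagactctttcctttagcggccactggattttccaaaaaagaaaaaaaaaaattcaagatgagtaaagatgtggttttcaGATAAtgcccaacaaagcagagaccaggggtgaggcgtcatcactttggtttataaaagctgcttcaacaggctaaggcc
The Il13 window held 1 match to GATAA, on the strand of the gene and starting 80 bases before the start, and the Il5 window held none. Only GATAA was searched, so a window without it can hold another form of the motif. The Il5 window shown above holds GATAG on the other strand. Of 27025 RefSeq windows of this length, 23.0% held GATAA on either strand, so a match is common, and it describes letters and not a bound site.

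Amphiregulin was the mediator found in the most cells. Areg (chromosome 5, 91139599 to 91148432) was at 1000.0 CPM (942 to 1061) and had a UMI in 80 cells (68.4%). It was at 422 in Gata3 and Il1rl1 T cells, 329 in Foxp3 T cells and 97.2 in conventional Cd4 T cells, which is 2.36-fold and 9.84-fold lower for the first and the last of these. Over the libraries Areg ranged from 342 in library 5 to 1920 in library 4, with a median of 900, and was higher than in the Gata3 and Il1rl1 T cells of the same library in 5 of 6. Calca, which encodes the neuropeptide calcitonin gene-related peptide, was at 466 CPM (427 to 508) in 51 cells, and ranged from 224 to 880 over the libraries with a median of 405. Calca did not exceed 29.8 in the other 5 classes and was higher than in both T cell classes in 6 of 6 libraries. Csf2, the gene of granulocyte-macrophage colony-stimulating factor, was at 248 CPM (219 to 279), with 65.8, 231 and 504 in the lowest, median and highest library, against 71.4 in conventional Cd4 T cells and 17.7 in Gata3 and Il1rl1 T cells. The chemokine gene Ccl1, whose product attracts cells through CCR8, was at 240 CPM in 25 cells, 5.75-fold above conventional Cd4 T cells.

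**Figure D2:**
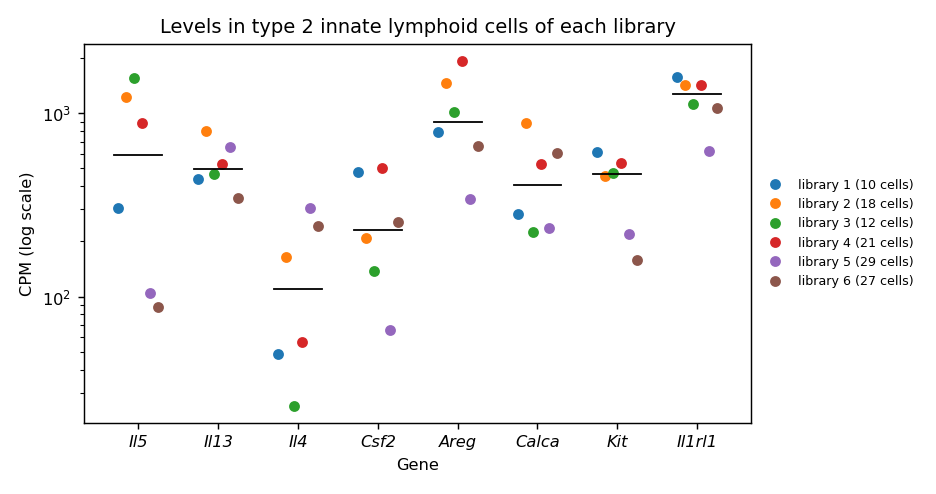
Levels of 8 genes (x axis) in the type 2 innate lymphoid cells of each library in CPM (y axis, log scale). Each point is a library and the black lines are medians over the 6 libraries; Il5 spans 87.9 to 1554 and Il13 spans 347 to 803. Il1rl1 is a gene of the rule.

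Several cytokines of other lymphocyte programs had no UMI. Ifng, Il17a, Il17f, Il22 and Xcl1, the products of type 1 and type 17 lymphocytes and of natural killer cells, had 0 UMIs in the 117 cells, where the limit of 3 counts is 2.69 CPM. Il17a was at 245 CPM in conventional Cd4 T cells, Ifng at 72.7 there and at 109 in natural killer cells, and Xcl1 at 1262 in natural killer cells. Of 25 cytokine and mediator genes tested against conventional Cd4 T cells, 7 were higher and 11 lower, with a median log2 difference of -0.49, beside 195 higher (2.89%) and 164 lower (2.43%) among all 6740 genes tested and a median of -0.20. Against Gata3 and Il1rl1 T cells, 9 of 21 were higher and 4 lower with a median of 1.06, beside 158 higher (2.36%) and 202 lower (3.01%) of 6704 genes with a median of -0.19. Without the mixed cells the lower genes among all those tested were 335 and 409 in the 2 comparisons, of which 157 and 198 were shared with those just given. The T cell classes were kept whole in these comparisons, and the part of this in the counts was not tested. With 20 in place of 5 CPM added, 88 genes were higher and 50 lower in the first comparison, and 66 and 67 in the second. The higher cytokine and mediator genes were Il5, Il13, Il4, Calca, Ccl1 and the growth factor gene Bmp7 in both comparisons, Areg against conventional Cd4 T cells, and Csf2, Csf1 and Lif against Gata3 and Il1rl1 T cells. Tnfsf8, the ligand of CD30, was lower in both, with 0.898 CPM against 514 in conventional Cd4 T cells.

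**Figure D3:**
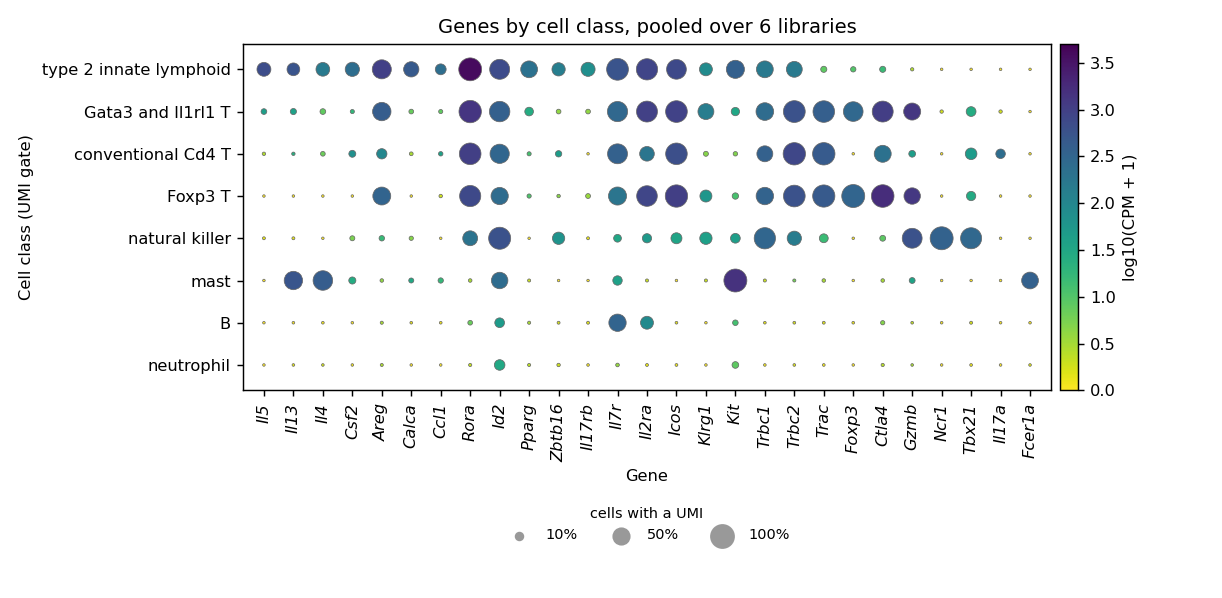
Genes (x axis) in 8 classes of cells gated on UMIs (y axis), pooled over the libraries. Color gives log10 of CPM plus 1 and dot area the share of cells with a UMI; Il5 and Calca stand out in the top row, Foxp3 and Ctla4 in the T cell rows and Fcer1a in mast cells.

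Il5 and Il13 were not seen in every type 2 innate lymphoid cell. A cell without a UMI can still hold transcripts that were not captured. Both Il5 and Il13 were found in 19 cells (16.2%), Il5 without Il13 in 23, Il13 without Il5 in 16 and neither in 59 (50.4%). The share with either cytokine was 49.6% (interval 40.7% to 58.5%), and 37.9%, 51.2% and 75.0% in the lowest, median and highest library (libraries 5 and 3 at the ends). A further 34 cells had Areg without Il5 or Il13, and 10 cells (8.55%) had none of Il5, Il13, Areg, Csf2, Il4 and Calca. Of the 117 cells, 115 had a UMI of some gene in the list of cytokines and mediators. Since deeper cells show more genes, each cell was also thinned to 3000 UMIs, which left 105 of 117 cells: Il5 was then seen in 31.4%, Il13 in 25.7% and Areg in 56.2%. The thinned shares were 3.09%, 5.15% and 48.5% in the Gata3 and Il1rl1 T cells (97 of 99 cells). In neutrophils, which should lack these cytokines, the thinned shares were 0% for Il5, 0.0761% for Il13 and 0.305% for Areg. The share for Areg in type 2 innate lymphoid cells (interval 46.6% to 65.3%) overlapped that in the Gata3 and Il1rl1 T cells (38.8% to 58.3%), while the shares for Il5 and Il13 did not overlap between the classes.

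**Figure D4:**
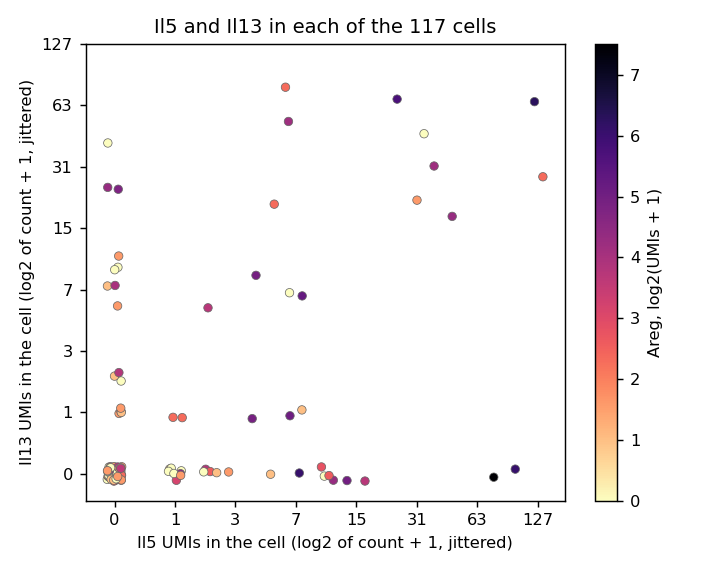
UMIs of Il5 (x axis) and Il13 (y axis) in each of the 117 type 2 innate lymphoid cells, on a log2 scale of the count plus 1 with jitter, colored by Areg. The 59 cells at the origin have neither cytokine, 19 cells have both, and 23 and 16 cells lie along the axes.

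The cells with Il5 or Il13 also held more Areg, Il2ra, Icos, Rora and Csf2 than the cells with neither. Areg was at 1421 CPM (1329 to 1519) in the 58 cells with either cytokine and at 479 (420 to 543) in the 59 without. Il2ra, the high-affinity chain of the interleukin-2 receptor, was at 1180 against 515, and Icos, a costimulatory receptor, at 1037 against 418. Rora was at 4757 against 2817 and Csf2 at 347 against 125. Within libraries, Il2ra, Icos and Csf2 were higher in the cells with either cytokine in 6 of 6 and Areg and Rora in 5 of 6. Klrg1, a marker of activated type 2 innate lymphoid cells, was at 114 against 46.2 but was higher in 3 of 6 libraries. The 2 sets differed in make-up, since 12 of the 14 mixed cells were among the cells with neither cytokine, and 39.7% of the cells with either and 55.9% of those with neither came from libraries 5 and 6. Without the mixed cells, Areg was at 1535 against 505, Il2ra at 1202 against 649, Icos at 1084 against 536, Rora at 4890 against 3758 and Csf2 at 377 against 173, while the intervals of Klrg1 overlapped (124 and 69.0). Il7r and Il4 overlapped between the sets with all cells (522 and 573, 149 and 165) and were lower in the cells with Il5 or Il13 without the mixed cells (519 and 759, 159 and 254). The cells with either cytokine were deeper, with a median of 8760 UMIs against 6770, and the part of depth was not tested. They were chosen by their cytokine counts, so these values describe the 2 sets of cells and are not a test.

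Among the receptors for alarmins and survival factors, those for interleukin-25, interleukin-9 and interleukin-2 were higher than in conventional Cd4 T cells (3 of 13 genes tested, 0 lower, median log2 difference 0.29, beside 2.89% higher, 2.43% lower and a median of -0.20 over all genes). Il17rb (chromosome 14, 29996135 to 30008896), the specific chain of the interleukin-25 receptor, was at 72.7 CPM (57.8 to 90.4) with 25.5, 73.0 and 114 in the lowest, median and highest library. It was at most 3.08 in the other classes and higher than in both T cell classes in 6 of 6 libraries. Il9r was at 44.0 CPM against 3.67 in conventional Cd4 T cells and varied little over the libraries, from 38.3 to 50.9. Il2ra was at 883 CPM against 179 in conventional Cd4 T cells, while the Gata3 and Il1rl1 T cells had 977. Il7r, the receptor chain on which innate lymphoid cells depend for survival, was at 545 CPM (503 to 590) and ranged over the libraries from 469 to 617. It was 1.49-fold above conventional Cd4 T cells and above both T cell classes in 6 of 6 libraries. Crlf2, the receptor for thymic stromal lymphopoietin, was at 67.3 CPM, against 80.4 in conventional Cd4 T cells. Of the chains of the interleukin-18 receptor, Il18r1 was at 153 CPM against 458 in conventional Cd4 T cells, and Il18rap at 245 against 129. Against Gata3 and Il1rl1 T cells 1 of 13 genes, Il17rb, was higher and 0 lower, with a median of -0.05 (2.36%, 3.01% and -0.19 over all genes).

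Receptors for hormones, lipids and neuropeptides had a median log2 difference of 1.03 over 11 genes tested against conventional Cd4 T cells (2 higher, 1 lower), beside -0.20 over all genes, of which 2.89% were higher and 2.43% lower. The median was 1.13 over 12 genes against Gata3 and Il1rl1 T cells (2 higher, 0 lower), beside -0.19, 2.36% and 3.01% over all genes. Cysltr1, a receptor for cysteinyl leukotrienes, was at 174 CPM and 7.17-fold above Gata3 and Il1rl1 T cells, and Ptgir, the prostacyclin receptor, at 46.7 against 2.04 in conventional Cd4 T cells. Nr3c1, the glucocorticoid receptor, was at 1131 CPM against 337 in conventional Cd4 T cells, a 3.32-fold difference seen in 6 of 6 libraries. The components of the receptor for calcitonin gene-related peptide, Calcrl and Ramp1, were at 181 and 128 CPM. Calcrl was at 49.0 and Ramp1 at 155 in conventional Cd4 T cells, and they were at 50.8 and 59.3 in Gata3 and Il1rl1 T cells. S1pr1, the sphingosine-1-phosphate receptor used for exit from tissues, was lower than in conventional Cd4 T cells, at 15.3 CPM against 149. Gata3 and Il1rl1 T cells had S1pr1 at 70.0, a difference short of the 4-fold limit.

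Of 14 costimulatory and checkpoint receptors, 3 were higher and 3 lower than in conventional Cd4 T cells (2.89% and 2.43% over all genes), with a median of -0.03. Against Gata3 and Il1rl1 T cells 0 of 15 were higher and 4 lower (2.36% and 3.01% over all genes), with a median of -0.90. Klrg1 was at 83.5 CPM against 3.67 in conventional Cd4 T cells and 138 in Gata3 and Il1rl1 T cells. Cd200r1, an inhibitory receptor, was at 266 against 20.8 in conventional Cd4 T cells and higher than in both T cell classes in 6 of 6 libraries. Icos was at 761 CPM and did not separate the cells from conventional Cd4 T cells (649), with higher values in 3 of 6 libraries. The lower genes were Tnfrsf4, Cd28 and Ctla4 against conventional Cd4 T cells and Tnfrsf4, Tnfrsf9, Ctla4 and Tigit against Gata3 and Il1rl1 T cells. Ctla4 was at 14.4 CPM against 208 in conventional Cd4 T cells and 1082 in Gata3 and Il1rl1 T cells, and Tnfrsf4, which encodes OX40, was at 30.5 against 270 and 1138. Without the mixed cells Ctla4 was at 2.26 CPM and Tnfrsf4 at 14.7. All cells with a Foxp3 UMI were left out there, so these falls follow in part from the choice of cells. Kit, the stem cell factor receptor, was at 377 CPM (158 to 615 over the libraries), against 1468 in mast cells and at most 42.3 in the other 4 classes.

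Transcription factors of the lineage were present, while those of type 1 lymphocytes had no UMI. Rora (chromosome 9, 68653786 to 69388246), required for type 2 innate lymphoid cell development, was at 3891 CPM (3776 to 4009), in 116 of 117 cells, and at 2722, 3893 and 5034 in the lowest, median and highest library. It was 3.73-fold above conventional Cd4 T cells and 2.85-fold above Gata3 and Il1rl1 T cells, in 6 of 6 libraries, which is short of the 4-fold limit. Id2, shared by innate lymphoid cells, was at 713 CPM against 314 in conventional Cd4 T cells and 592 in natural killer cells. Pparg, a nuclear receptor of lipid metabolism, was at 210 CPM (184 to 239) with 117 to 400 over the libraries, and at most 25.4 in the other classes. Zbtb16, which encodes PLZF, was at 136 CPM in 38 cells against 3.08 in Gata3 and Il1rl1 T cells. Nfkb1 was at 5536 CPM against 1116 in conventional Cd4 T cells, and Ikzf3 at 929 against 140. Over the list, 3 of 28 genes were higher (Pparg, Ikzf3 and Nfkb1) and 1 lower than in conventional Cd4 T cells, beside 2.89% and 2.43% over all genes, with a median of 0.08. Against Gata3 and Il1rl1 T cells 2 of 28 were higher (Zbtb16 and Pparg) and 3 lower (Tbx21, Foxp3 and Ikzf2). The median was 0.02, and the shares over all genes were 2.36% and 3.01%. Tbx21 and Eomes, the factors of type 1 lymphocytes, had 0 UMIs, against 291 and 295 CPM in natural killer cells. Il23r and Il22 also had 0 UMIs, and of 9 genes in the list of group 3 innate lymphoid cells 7 were lower and 1 (Kit) higher than in conventional Cd4 T cells (2.43% and 2.89% over all genes), with a median log2 difference of -4.02 (-3.99 with genes at 0 set to 3 counts). Against Gata3 and Il1rl1 T cells only 4 genes of this list were tested. There 1 (Kit) was higher and 1 (Ccr6) lower, beside 2.36% and 3.01% over all genes, with a median of -1.19. Long genes such as Rora collect more UMIs when intronic reads are counted, so levels are compared here between classes and not between genes.

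Of 25 genes of tissue residence and homing, 2 were higher and 4 lower than in conventional Cd4 T cells (2.89% and 2.43% over all genes), with a median of 0.10. Against Gata3 and Il1rl1 T cells 3 of 26 were higher and 4 lower (2.36% and 3.01% over all genes), with a median of -0.12. Ccr8, the receptor for CCL1, was at 99.7 CPM against 10.6 and Ccr9, a homing receptor for mucosa, at 83.5 against 1.63, although Ccr9 had 0 UMIs in 1 library. Cxcr6 was at 354 CPM against 55.4 in Gata3 and Il1rl1 T cells and 209 in conventional Cd4 T cells. Itgae, the integrin chain of epithelial retention, was at 11.7 CPM against 165 in Gata3 and Il1rl1 T cells. Cxcr3, a receptor of type 1 lymphocytes, had 0 UMIs, against 39.6 CPM in conventional Cd4 T cells. Itgb1, the beta 1 integrin, was lower than in all 5 classes, at 69.1 CPM with 39.1 to 96.6 over the libraries, against 171 in Foxp3 T cells, the lowest of the others.

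The rule used Cd3d, Cd3e and Cd3g, and the T cell classes were gated on the same genes. The other genes of the receptor were not used by the rule. They go with the Cd3 genes in T cells, so their differences from the T cell classes follow in part from the gates. Trac was nearly absent, at 7.18 CPM (8 UMIs in 7 cells) against 446 in conventional Cd4 T cells and 389 in Gata3 and Il1rl1 T cells. The beta constant genes were present at 161 CPM (Trbc1, 62 cells) and 155 (Trbc2, 55 cells), against 370 and 825 in conventional Cd4 T cells. Natural killer cells, which also lack a rearranged receptor, had Trbc1 at 311 and Trbc2 at 146. Trbc1 and Trbc2 are near-identical copies, so the split of their reads is uncertain. Genes of the gamma and delta loci were found without Trdc, the delta constant chain, which had 0 UMIs. Tcrg-C4 was at 64.7 CPM (39.5 to 113 over the libraries) against 1.63 in conventional Cd4 T cells, Tcrg-C1 at 52.1 against 9.39, and Trdv4 at 29.6 in 25 cells against 0 UMIs. Of the signalling genes, Lck was at 11.7 CPM against 276 in conventional Cd4 T cells and 205 in natural killer cells, and Cd5 at 4.49 against 239. Without the mixed cells, which include all those with Foxp3, Cd5 had 0 UMIs. Of 13 genes tested, 9 were lower and 2 higher than in conventional Cd4 T cells (2.43% and 2.89% over all genes), with a median log2 difference of -2.56.

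Regulatory T cells of tissues also carry Gata3 and ST2. Most of their listed genes were lower in the type 2 innate lymphoid cells than in Gata3 and Il1rl1 T cells. Foxp3, the lineage factor of regulatory T cells, was found in 5 of 117 cells (4.27%) at 8.98 CPM, against 72.7% of the Gata3 and Il1rl1 T cells at 295. After thinning the shares were 0.952% and 53.6%. Of the 5 cells with Foxp3, none held Il5 or Il13, since Foxp3 had 0 UMIs in the 58 cells with either cytokine. In the 13 cells with 1 Cd3 UMI, Foxp3 was at 72.9 CPM, and in the 104 with none it was at 1.99. Ikzf2, which encodes Helios, was at 352 CPM against 2310 in Gata3 and Il1rl1 T cells, and Gzmb, a granule protease, at 1.80 against 1291. Of 9 genes in the list of regulatory T cells, 6 were lower than in Gata3 and Il1rl1 T cells and 0 higher (3.01% and 2.36% over all genes), with a median of -3.91 (-3.88 with genes at 0 set to 3 counts). Il2ra, also in this list, was at 883 CPM against 977. Against conventional Cd4 T cells 1 of 7 genes (Il2ra) was higher and 3 lower (2.89% and 2.43% over all genes), with a median of -1.25.

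**Figure D5:**
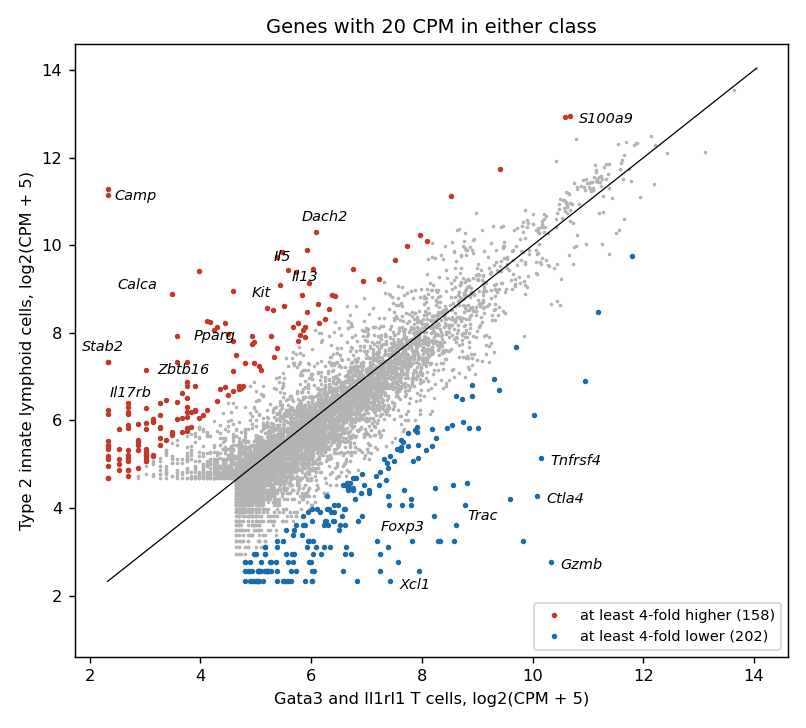
Genes at 20 CPM or more in either class, in Gata3 and Il1rl1 T cells (x axis) and type 2 innate lymphoid cells (y axis), as log2 of CPM plus 5. Red marks 158 genes at least 4-fold higher and blue 202 at least 4-fold lower, and the line marks equal levels; S100a9 and Camp are neutrophil genes that came from few cells.

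Markers of other cell types were summed over the 117 cells. Of 12 mast cell and basophil genes that the rule did not use, 7 had 0 UMIs, among them Fcer1a, Ms4a2, Cma1, Tpsab1 and Prss34. The list of 16 genes summed to 495 CPM (325 to 664 over the libraries), with Kit as its most abundant gene. Of 3 genes tested, 2 (Kit and Slc18a2) were higher and 0 lower than in conventional Cd4 T cells, with a median of 2.43 (2.89% and 2.43% over all genes). The counts were the same against Gata3 and Il1rl1 T cells, with a median of 2.61 (2.36% and 3.01% over all genes). Hdc, another gene of the list, was at 67.3 CPM in 20 cells, and at 27.2 without the mixed cells. Of 14 natural killer genes 7 had 0 UMIs, among them Ncr1, Klrb1c, Gzma and Eomes, and the list summed to 258 CPM (87.5 to 536) with Fcer1g in the lead (128). Without the mixed cells the natural killer list summed to 140 CPM and Fcer1g was at 20.4, below Nkg7 (48.7). The B cell list summed to 37.7 CPM (15.3 to 54.7), led by Ighm, with Ms4a1 and Pax5 at 0, and the fibroblast list to 0.898, with 5 of 6 genes at 0. The erythroid list was at 13.5 CPM, all from Hba-a1 in 8 cells, which was at most 1.03 in the other 5 classes. Neutrophil genes summed to 22471 CPM, with 0, 25.1 and 75299 in the lowest, median and highest library and S100a9 (7961) in the lead, although only 22 cells had any such UMI and 5 had 5 or more; 7 of these 10 genes were among the higher genes against both T cell classes (2.89% and 2.36% of all genes). Without the 14 mixed cells, picked in part by S100a8 of this list, it summed to 34.0, a fall that is partly by construction. The 14 monocyte and macrophage genes, none of them at 0, summed to 2507 CPM (306 to 5285), led by Lyz2 (891 in 9 cells), with a UMI in 86 of the 117 cells and 5 or more in 28. They summed to 274 without the mixed cells, which is partly by construction, since Lyz2 and Cd74 of this list picked those cells. The T cell classes held such transcripts too, with Lyz2 at 1062 CPM in conventional Cd4 T cells. Without the mixed cells, Il5 was at 703 CPM, Il13 at 652 and Areg at 1164.

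Besides the listed genes, 25 were named by their ratio to the highest of the 5 other lymphoid and mast cell classes, among 3345 genes with enough UMIs. Only 37 of the 3345 were at least 4-fold above all 5 classes, and 6 of the 25 named genes were in the lists (Il5, Calca, Il17rb, Pparg, Hilpda and Ccl1). The leading gene was the long noncoding 1700113H08Rik at 157 CPM (20.4 to 303 over the libraries), with 0 UMIs in all 5 classes. Its neighbor on chromosome 10, the scavenger receptor gene Stab2, followed at 156 CPM in 24 cells, of which 1 cell held 28.7% of the UMIs. Dach2, a transcription factor of the dachshund family, was at 1258 CPM (1193 to 1326) with 721, 881 and 2617 in the lowest, median and highest library, and 18.5-fold above the Gata3 and Il1rl1 T cells at 63.1. Plxdc2, a membrane protein, was found in 102 cells at 670 CPM (394 to 815), and in no other class above 47.7. The cell polarity genes Pard3 (699 CPM) and Pard3b (295) were 10.7-fold and 12.8-fold above the highest other class. Lmo4, a LIM-domain cofactor, was at 943 CPM in 102 cells and at most 133 elsewhere, and Hlf, a PAR bZIP factor, at 402 and at most 64.6. Klf5 was at 56.6 CPM and at most 3.59. Kcnd2, a potassium channel gene, rested on 8 cells. The remaining 13 genes (Apbb2, Igsf5, A930011G23Rik, Ccdc184, Eepd1, Bace2, Stxbp6, Magi1 and Pip5k1b beside Il17rb, Pparg, Hilpda and Ccl1) ranged from 51.2 to 699 CPM and from 5.32-fold to 16.8-fold. Of the 25 genes, 19 had a RefSeq upstream window and 3 of these held GATAA, beside 23.0% of all windows.

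At the other end, 10 genes were named for lying furthest below all 5 classes, among 1069 genes at 100 CPM or more in each of them. Entpd1, which encodes the ectonucleotidase CD39, was at 16.2 CPM and 6.52-fold below the lowest of them, conventional Cd4 T cells at 133. Prkca, a protein kinase C, was at 148 CPM and 2.72-fold below the lowest class. Tpi1, an enzyme of glycolysis, was at 53.9 CPM and 2.14-fold below. Apoe, Fcer1g, Itgb1, Plek, Atp1b3, Vimp and Syk made up the rest, from 2.10-fold to 3.99-fold below. Apoe and Fcer1g are abundant in macrophages and mast cells, and a single cell held 53.4% of the UMIs of Apoe, as did a single cell for 44.8% of those of Fcer1g.

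Of 20 genes of lipid and amino acid metabolism, 2 were higher, Hilpda among them, and 0 lower than in conventional Cd4 T cells (2.89% and 2.43% over all genes), with a median of 0.17. Against Gata3 and Il1rl1 T cells 2 of 23 were higher (Hilpda and Slc7a8) and 3 lower (Cd36, Mt1 and Mt2), beside 2.36% and 3.01% over all genes, with a median of -0.45. Hilpda, a hypoxia-induced lipid droplet protein, was at 699 CPM (273 to 1339 over the libraries) and at most 103 in the other classes. Slc7a8, an amino acid transporter, was at 237 CPM against 33.9 in Gata3 and Il1rl1 T cells and 118 in conventional Cd4 T cells. Immediate early and feedback genes had a median log2 difference of 0.90 over 25 genes against conventional Cd4 T cells, with 0 past the 4-fold limit in either direction (median of -0.20, 2.89% higher and 2.43% lower over all genes). Against Gata3 and Il1rl1 T cells the median was 0.81, with 3 of 25 higher (Fosb, Hspa1a and Hspa1b) and 0 lower (median of -0.19, 2.36% and 3.01% over all genes). Digestion of tissue is known to induce such genes, and its part was not tested. Cell cycle genes were at a median of -0.58 over 17 genes with 0 past the limit against conventional Cd4 T cells (-0.20, 2.89% and 2.43% over all genes), and Mki67, a marker of cycling cells, was found in 10 of the 117 cells.

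PEPITEM is released from 14-3-3 zeta in response to adiponectin. Its known path to T cell migration runs through sphingosine-1-phosphate and cadherin-15, which the authors place on inflamed endothelial cells. In the type 2 innate lymphoid cells Adipor1 was at 55.7 CPM (38.3 to 79.3 over the libraries) and Adipor2 at 195 (167 to 268), against 74.3 and 139 in conventional Cd4 T cells. Appl1, the adapter of the adiponectin receptors, was at 293 CPM (262 to 326) against 94.7, a 2.99-fold difference seen in 6 of 6 libraries. Ywhaz, the gene of 14-3-3 zeta, was at 480 CPM against 423. Cdh15 and S1pr5 had 0 UMIs and S1pr4 was at 15.3 CPM against 47.8. Of 7 genes of this list tested, 0 were higher and 1 (S1pr1) lower than in conventional Cd4 T cells, with a median of -0.39, beside 2.89%, 2.43% and -0.20 over all genes. Of the 7 genes, 0 passed the limit against Gata3 and Il1rl1 T cells, with a median of -0.17 (2.36% higher, 3.01% lower and -0.19 over all genes), so that the counts were near those of all genes.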

How the data were processed

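The authors prepared libraries with a 3′ droplet kit, aligned reads to mm10 with Cell Ranger 7.0.0, corrected ambient RNA (SoupX 1.6.2), dropped doublets (DoubletFinder 2.0.3) and, in Seurat 4.3.0, kept cells with 200 to 7000 genes and at most 10% mitochondrial content. They deposited whole UMI counts of 20394 genes in 32953 cells, not scaled for depth. Whether intronic reads were counted is not given in the sources used here. No per-sample column was left unused (0). No further doublet caller was run.

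Cells were gated on the counts as deposited. Gata3 and Il1rl1 T cells were set apart before the other T cell gates were applied, and 65 cells that then met 2 gates were left out of the compared classes. Summed counts per 1000000 (CPM) carry exact Poisson 95% intervals and shares Wilson 95% intervals. No test was run, because the barcode numbers are not linked to samples. Gene coordinates are from GENCODE M21 (GRCm38) by symbol, and upstream sequences from RefSeq. Scripts ran under Python 3.11.15 with scipy 1.17.1, numpy 2.4.6 and pandas 2.3.3, and figures were drawn with matplotlib 3.10.9.

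Genes named are those of 20 lists, the 25 with the highest ratio to the highest of 5 classes (at least 50 UMIs, and 1 in every library, genes of the rule left out) and the 10 with the lowest ratio to the lowest class (100 CPM or more in each). Some genes of the lists are not reported here. The members, lists and gates were chosen with earlier results of these data known. Alternatives were stricter gates, the share outside the neutrophil gate, thinning, other minimums and added values, and each library left out. Leaving out mixed cells was added after the data were seen.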

Additional observations from a re-analysis of the deposited data

How the results depend on the processing

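No paired analysis was possible because the barcode numbers are not linked to the samples and their replicate numbers, so that vehicle and PEPITEM were not compared; classes of cells were set side by side within each library, with no test. Of 100 recomputed values, 73 moved by less than the spread used as the limit (the 95% interval of a value, or 1.5 times a count) and 27 moved by more. With each library left out, the share of type 2 innate lymphoid cells was 0.332% to 0.373%, Il5 496 to 835, Il13 491 to 593 and Areg 827 to 1170 CPM, the share with Il5 or Il13 46.7% to 53.4% and that with Foxp3 3.41% to 5.56%. The genes higher than in conventional Cd4 T cells numbered 190 to 211 and the lower 136 to 229, and against Gata3 and Il1rl1 T cells 138 to 181 and 195 to 261. The share of type 2 innate lymphoid cells was 0.445% of the cells outside the neutrophil gate, larger by construction, and 0.289% after thinning all cells to 3000 UMIs, which left 91 such cells of 31437. As the mean of the levels of single cells Il5 was at 423 and Areg at 801 CPM. With no Cd3 UMI allowed, Il13 was at 596 CPM and the share with Foxp3 was 0.962%. That share was 0.952% after thinning and 0% without the mixed cells, by construction. Without these cells Il13 was at 652 and Areg at 1164 CPM. With 20 in place of 5 added to the levels, 88 genes were higher and 50 lower than in conventional Cd4 T cells, and 66 and 67 against Gata3 and Il1rl1 T cells. With a minimum of 50 CPM, 98 genes were lower than in conventional Cd4 T cells. Without the mixed cells, left out of the type 2 innate lymphoid cells only, 335 and 409 genes were lower in the 2 comparisons. Of the higher genes, 174 of 195 and 142 of 158 were shared with the result without the mixed cells. The other alternatives, a minimum of 2 UMIs of Gata3 and Il1rl1 and the median over the libraries among them, stayed within the limit. The 117 cells, 10 to 29 per library, set the precision. For a gene with 0 UMIs the limit of 3 counts is 2.69 CPM, and the exact interval ends at 3.31.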
